A study of Mus musculus with 176 samples.

Results

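The 10 genes described here encode calcium-binding and cytoskeletal proteins of effector and effector-regulatory T cells: the S100 genes S100a4, S100a6, S100a10 and S100a11, the galectins Lgals1 and Lgals3, the annexins Anxa1 and Anxa2, the actin-capping gene Capg and the vimentin gene Vim. They were taken by name from the 53546 gene names of a full-length single-cell count table, and all 10 had 1 row each. Single CD4 T cells had been sorted from inguinal and para-aortic lymph nodes of female C57BL/6J mice given the apolipoprotein B peptide P6 in complete Freund's adjuvant at 7 weeks of age and in incomplete Freund's adjuvant at 9 weeks, with nodes taken at 11 weeks. Every cell came from the antigen-experienced gate (TCRβ+ CD4+ CD44hi CD62L-), and P6+ cells bound both fluorescent P6:I-Ab tetramers while P6- cells bound neither. Of 176 sorted cells, 161 passed a filter on read number, gene number and mitochondrial share: all 32 P6+ cells and all P6- cells but 15. The study also asked for a minimum mapping rate, which is not used here, and kept fewer P6- cells, so the P6- group described here holds cells that the study left out. The P6+ cells came from 1 mouse, the methods describe P6- cells as taken from what was left of the sample volume, and the labels name no mouse for any cell. There was no unimmunized group, and every value below describes these cells, without a test.

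S100 proteins are small EF-hand proteins that change shape on binding calcium and then dock to partners, many of them at the cell membrane or the actin cortex. Annexins bind membranes in a calcium-dependent way, and S100A10 and S100A11 are known as partners of annexin A2 and annexin A1. Galectins bind galactose-containing glycans, CapG caps the barbed ends of actin filaments, and vimentin is an intermediate filament protein. In T cells these genes are known to be low in naive cells and higher after activation, with the highest levels in effector, memory and effector-regulatory cells.

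The P6+ cells were split by reads of Trbv13-2, a variable segment of the T cell receptor β chain: 16 cells had 10 or more reads (48 to 780, median 267) and the other 16 had 0 or 1. A read of a variable segment is not a clonotype, and the split rests on the reads alone. Total reads per cell had medians of 1700549 in P6+ cells with Trbv13-2, 1820936 in P6+ cells without it and 1500457 in P6- cells, and median numbers of detected genes were 4596.5, 4222 and 3432. Mitochondrial reads had medians of 1.19%, 1.53% and 3.56%. All P6+ cells carried 1 prefix in their titles, which only 11 of the passing P6- cells shared, so values against those 11 cells stand beside the pooled ones. Those 11 cells had medians of 6.45% mitochondrial reads and 3674 detected genes. All 9 T cell markers were found in each group, whereas CD8, natural killer and red cell markers were at 0 in every P6+ cell.

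The S100a6 and S100a11 genes lie on chromosome 3 with the other 2 S100 members, and Anxa2 lies on chromosome 9. Their RefSeq promoters (GRCm38.p6, plus strand, from 250 bases before to 50 after the start) are shown because S100a6 and Anxa2 were low in most P6+ cells without Trbv13-2 and S100a11 was not. They span chr3:90612644-90612943, chr3:93520246-93520545 and chr9:69453433-69453732. Capitals mark matches, searched on both strands, to the letters TGANTCA known for AP-1, GGGCGG known for SP1, TATAAA known as the TATA box, and TGTGGT known for RUNX factors. No match overlaps another.
S100a6: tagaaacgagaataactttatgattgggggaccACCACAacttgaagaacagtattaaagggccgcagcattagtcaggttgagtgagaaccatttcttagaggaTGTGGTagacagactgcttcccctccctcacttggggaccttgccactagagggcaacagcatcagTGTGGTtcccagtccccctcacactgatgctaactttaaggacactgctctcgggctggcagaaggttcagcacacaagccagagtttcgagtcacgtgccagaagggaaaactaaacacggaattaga
S100a11: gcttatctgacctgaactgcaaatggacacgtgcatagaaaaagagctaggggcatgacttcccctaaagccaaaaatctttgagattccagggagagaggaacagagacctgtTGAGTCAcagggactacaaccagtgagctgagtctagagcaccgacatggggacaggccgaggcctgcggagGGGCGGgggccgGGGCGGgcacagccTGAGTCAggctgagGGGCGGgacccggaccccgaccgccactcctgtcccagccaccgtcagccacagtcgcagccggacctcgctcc
Anxa2: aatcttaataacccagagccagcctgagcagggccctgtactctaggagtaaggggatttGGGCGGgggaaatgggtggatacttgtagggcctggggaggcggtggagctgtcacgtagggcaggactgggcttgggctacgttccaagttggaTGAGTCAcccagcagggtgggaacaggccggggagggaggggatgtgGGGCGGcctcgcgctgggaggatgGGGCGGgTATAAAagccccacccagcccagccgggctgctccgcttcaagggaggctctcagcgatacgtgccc

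The S100a11 window held the AP-1 letters at positions -136 and -38 from the start and the SP1 letters at -64, -52 and -24. The Anxa2 window held 1 AP-1 match at -95, a TATA match at -17 and SP1 matches at -190, -48 and -24. In the S100a6 window only the RUNX letters were found, at -217 (on the minus strand), -145 and -79. Promoters of 8 members were in the table, and S100a10 and Lgals1 were not matched. Among the 8, the AP-1 letters were in 2, the TATA letters in 4 (S100a4, Anxa1, Anxa2 and Vim), the SP1 letters in 3 and the RUNX letters in 1. Over all 32851 promoters of the same length, 7.81% held the AP-1 letters, 13.6% the TATA letters, 35.7% the SP1 letters and 16.8% the RUNX letters.

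S100a10 encodes p11, the S100 protein that joins annexin A2 at the membrane, and it was the S100 member found in the largest number of P6- cells (chromosome 3, 93555080 to 93564643, plus strand, GRCm38). In P6+ cells with Trbv13-2 it ranged from 1.21 to 2491 reads per 1000000 reads of the cell (cpm), with a median of 847, and 15 of 16 cells had 10 or more reads, the limit used here for detection. In P6+ cells without Trbv13-2 the range was 0.426 to 1582 cpm with a median of 142.5, and 10 of 16 cells reached the limit. The P6- cells spanned 0 to 7666 cpm with a median of 5.75, and 63 of them (48.8%) reached it. The 3 groups overlapped, and the highest cell was P6-. Pooled over the cells of a group, the level was 910 cpm (exact 95% Poisson interval 899 to 921) with Trbv13-2, 313 cpm (307 to 320) without it and 394 cpm (391 to 397) in P6- cells. These Poisson intervals cover counting error only, since reads of Smart-Seq2 have no molecular identifiers and are not independent molecules. The exact binomial intervals on shares of cells below treat cells as independent draws. The P6+ cells share a mouse and so are not independent. The paper describes clonal expansion among them. Neither kind of interval covers the spread between animals.

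S100a6, known as calcyclin, differed more than S100a10 between the P6+ groups in the share of cells holding it (chromosome 3, 90612882 to 90624181, plus strand). Cells with Trbv13-2 ranged from 1.81 to 3072 cpm around a median of 502, and 15 of 16 reached 10 reads (93.8%, interval 69.8 to 99.8%). Cells without Trbv13-2 had a median of 1.92 cpm and a highest value of 1389 cpm, with 6 of 16 at the limit (37.5%, 15.2 to 64.6%). In P6- cells the median was 0, the highest value 1971 cpm and the number at the limit 24 (18.6%, 12.3 to 26.4%). The 6 cells without Trbv13-2 that did hold S100a6 had a median of 909 cpm against 506 cpm in the 15 with it, so the groups differed in how many cells held the gene and not by a lower level in the cells that did.

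S100a11, a S100 protein linked to membrane repair (chromosome 3, 93520488 to 93526287, plus strand), followed another pattern. Its medians were 297 cpm with Trbv13-2 (0.655 to 1144), 145 cpm without it (0 to 801) and 0.928 cpm in P6- cells (0 to 1097). Detection was in 15 of 16 cells with Trbv13-2, 12 of 16 without it and 46 P6- cells (35.7%). Both P6+ groups thus lay above most P6- cells, and they overlapped each other over nearly their whole range. Processed pseudogenes near-identical to S100a11 are in the table, and 1 of them, Gm7665, was 98.7% identical over 297 bases and held reads amounting to 3.31% of those of S100a11. How many S100a11 reads were lost to such copies was not tested.

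S100a4, known as a marker of motile and memory T cells (chromosome 3, 90603771 to 90606045, plus strand), had few reads in all groups. The highest count in any passing cell was 71 reads, against 5062 for S100a6. It reached 10 reads in 8 of 16 P6+ cells with Trbv13-2, 5 of 16 without it and 9 P6- cells (6.98%), and pooled levels were 7.58, 5.32 and 1.47 cpm. Of its 584 exonic bases, 302 (51.7%) also lie in exons of the same-strand gene Gm42674, which had 0 reads. The counting used assigns a read only where it touches a single gene, so the S100a4 level is uncertain. Whether its reads were lost was not tested. On chromosome 3 S100a4 and S100a6 are 6836 bases apart, S100a11 and S100a10 are 28792 bases apart, and 2896306 bases separate the pairs.

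**Figure D1:**
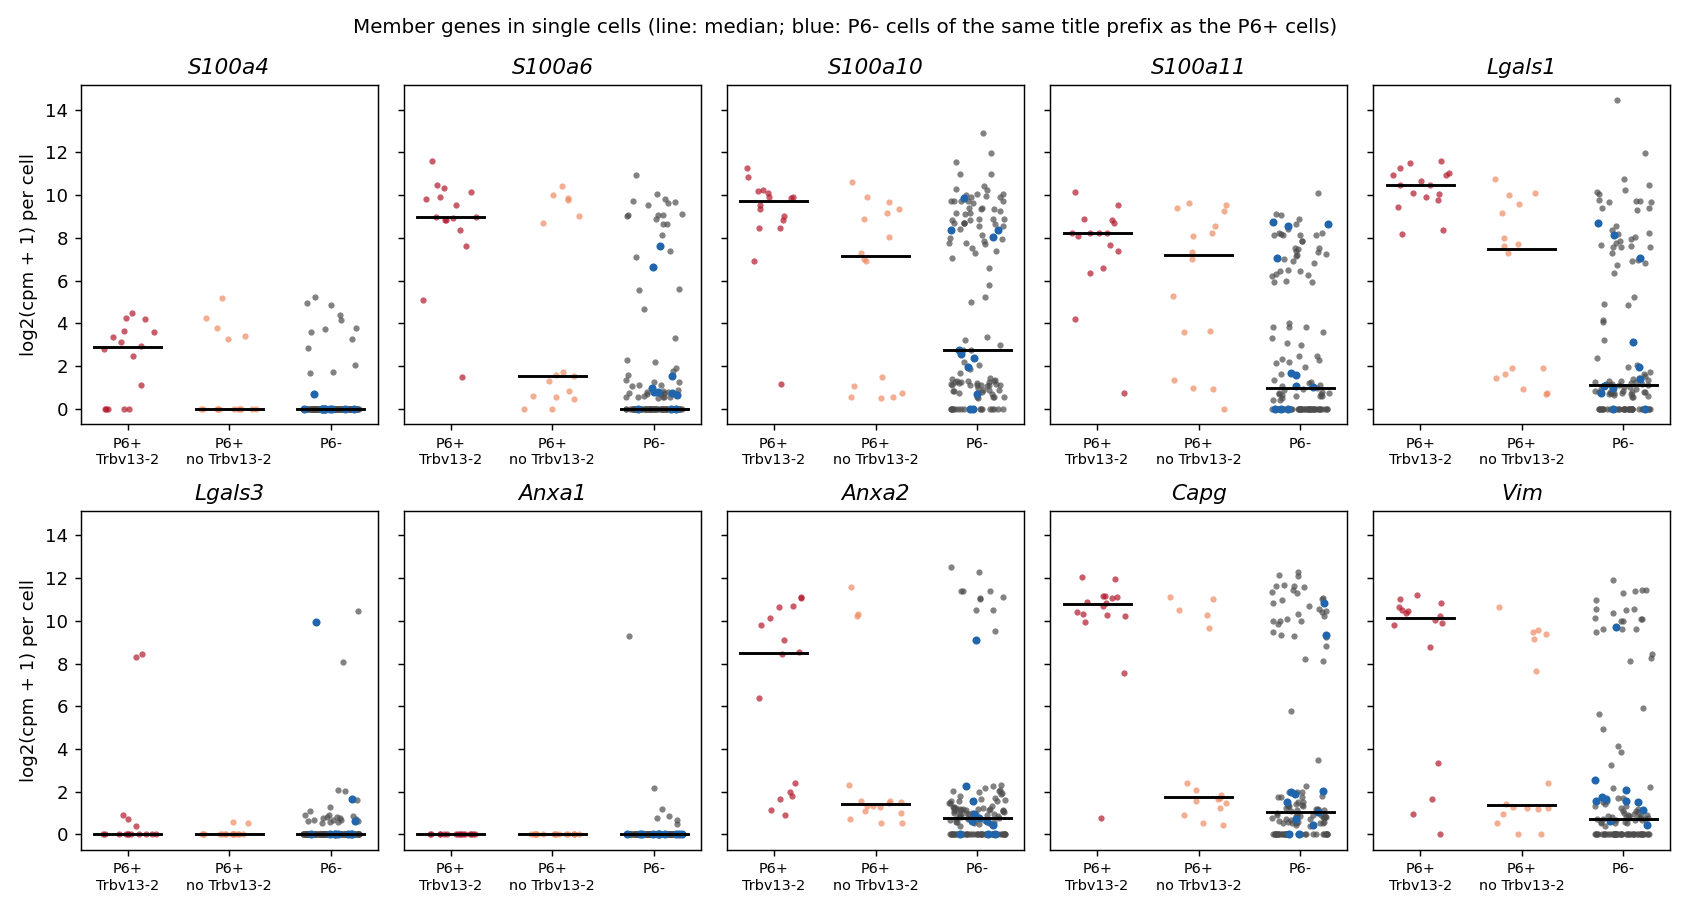
Level of each member in each cell as log2(cpm + 1), with 1 point per cell, a black line at the group median and blue points for the 11 P6- cells that share the title prefix of the P6+ cells. For Lgals1 all 16 P6+ cells with Trbv13-2 lie at 291 cpm or more, while for Capg, S100a6, Anxa2 and Vim the P6+ cells without Trbv13-2 fall into a high and a low set.

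Lgals1, the gene of galectin-1, a secreted lectin known to act on activated T cells (chromosome 15, 78926725 to 78930465, plus strand), was the member found in every P6+ cell with Trbv13-2. These 16 cells ranged from 291 to 3050 cpm with a median of 1428. Cells without Trbv13-2 ranged from 0.585 to 1748 cpm with a median of 175, and 9 of 16 reached 10 reads. The P6- median was 1.18 cpm, and 42 cells (32.6%) reached the limit. A single P6- cell held 22217 cpm, which is 40.6% of all Lgals1 reads of that group, and without it the pooled P6- level was 162 cpm in place of 271 cpm. Of the 10 members Lgals1 had the widest separation over pairs of cells: a P6+ cell with Trbv13-2 was the higher of the pair in a share of 0.89 against P6+ cells without Trbv13-2 and 0.95 against P6- cells (the area under the curve, AUC, where 0.5 is no separation).

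Lgals3, the gene of galectin-3, known as a macrophage product and also found in activated T cells (chromosome 14, 47367751 to 47386160, plus strand), was rare. It reached 10 reads in 2 of 16 P6+ cells with Trbv13-2, at up to 347 cpm, in 0 of 16 without it, and in 3 P6- cells (2.33%), at up to 1425 cpm. The 16 cells without Trbv13-2 held 2 reads in all, so the ratio of the P6+ groups has a counting interval of 7.12 to 12.02 on the log2 scale. Its values rest on these 5 cells.

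Anxa2, the membrane-binding partner of S100A10 (chromosome 9, 69453620 to 69491795, plus strand), was the member that fewest cells held among the 7 abundant ones. Cells with Trbv13-2 ranged from 0.857 to 2199 cpm with a median of 361, and 10 of 16 reached 10 reads (62.5%, 35.4 to 84.8%). Only 3 of 16 cells without Trbv13-2 did so (18.8%, 4.05 to 45.6%), and 12 P6- cells (9.30%, 4.90 to 15.7%). Cells that held Anxa2 held much of it in every group: their medians were 1008, 1268 and 2173 cpm, highest in the P6- cells. Anxa1, the glucocorticoid-responsive annexin of chromosome 19 (20373428 to 20390944, minus strand), had 0 reads in all 32 P6+ cells, and a count of 0 allows pooled levels of up to 0.0993 cpm with Trbv13-2 and 0.103 cpm without it. In P6- cells 1 cell with 994 reads held 99.2% of its reads.

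Capg (chromosome 6, 72544391 to 72562983, plus strand) was the member with the most reads in P6+ cells with Trbv13-2. These cells ranged from 0.717 to 4300 cpm with a median of 1764, and 15 of 16 reached 10 reads. Cells without Trbv13-2 had a median of 2.41 cpm and a highest value of 2208 cpm, with 5 of 16 at the limit. The P6- median was 1.06 cpm, the highest value 5014 cpm, and 35 cells (27.1%) reached the limit. In cells that held Capg the medians were alike: 1845, 1477 and 1428 cpm, a ratio of 1.25 between the P6+ groups, while the share of cells holding it differed 3-fold.

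Vim (chromosome 2, 13573927 to 13582826, plus strand) had a median of 1126 cpm in cells with Trbv13-2 (0 to 2355), 1.57 cpm without it (0 to 1594) and 0.651 cpm in P6- cells (0 to 3857). It reached 10 reads in 13 of 16 cells with Trbv13-2, 6 of 16 without it and 29 P6- cells (22.5%). Here both parts differed between the P6+ groups, the share of cells 2.17-fold and the median of the cells holding it 1.92-fold. For Lgals1 these ratios were 1.78 and 2.52, and for S100a10 1.5 and 1.80.

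Between genes, levels were compared per kilobase of exon. In P6+ cells with Trbv13-2 the order was Lgals1 (1842 cpm per kb), Capg (800), S100a10 (751), S100a11 (741), S100a6 (588), Vim (195), Anxa2 (190), Lgals3 (18.6), S100a4 (12.98) and Anxa1 (0). Lgals1 was above Capg in 13 of 16 cells and S100a6 above Vim in 13 of 16. Neighbours in between did not separate beyond the spread of the cells, with Capg above S100a10 in 10 of 16, S100a10 above S100a11 in 9, S100a11 above S100a6 in 9 and Vim above Anxa2 in 8. Lgals3 stood above S100a4 in the pooled order through its 2 cells, and in single cells it was the higher in 2 of 16, with medians of 0 and 10.8 cpm per kb. The per-length order is that of one annotation, and S100a4 keeps the uncertainty named above.

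The first comparison asks how P6+ cells with Trbv13-2 differ from the P6+ cells without it, within 1 mouse and 1 title prefix. Capg, Lgals1, Vim, S100a10, S100a6 and Anxa2 were higher with Trbv13-2, and S100a11 and S100a4 differed little. On the log2 scale of pooled cpm + 1 the difference was 2.43 for Capg, 2.07 for Lgals1, 1.86 for Vim, 1.54 for S100a10, 1.46 for S100a6 and 1.28 for Anxa2. It was 0.41 for S100a11 and 0.44 for S100a4. Of the 7 members with 10 cpm or more in both groups, 6 were higher by 1 or more and 0 lower, with a median difference of 1.54, where 19.7% of 4257 such genes were higher and 25% lower, with a median of -0.10. Anxa2 fell to 0.97 when every cell had the same weight and to 0.92 when every cell was thinned to the same depth, which left 5 of the 7. The limit on the mean of the groups is used in the counts below unless a limit in both groups is named. With it Lgals3 came in through the Trbv13-2 group alone, so its difference was fixed by the limit and is not counted for the members. Over all 6993 genes at that level 32.5% were higher by 1 or more and 33.3% lower. AUC was 0.75 or more for 6 of the 7 members with 10 cpm or more in both groups (Lgals1 0.89, Capg 0.83, Vim 0.80, S100a10 0.78, Anxa2 0.76 and S100a6 0.75). It was so for 1.22% of all genes at the limit on the mean. For S100a11 it was 0.61. Over 16 alternatives the S100a11 difference lay between -0.39 and 1.03, above 0 in 13 and below 0 without the cells with Mki67, Foxp3 or Cd74 reads, while those of the other 6 abundant members were above 0 in all 16.

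Against the P6- cells the P6+ cells with Trbv13-2 were higher for all 7 abundant members. The log2 difference of pooled levels was 3.01 for S100a6, 2.62 for Lgals1, 2.42 for S100a11, 2.03 for Capg, 1.84 for Vim, 1.59 for Anxa2 and 1.21 for S100a10. Lgals3 differed by 0.78. That makes 7 of 8 members higher by 1 or more, where 24.5% of 7571 genes were. Over those genes 34.6% were lower by 1 or more, a split that scaling with DESeq2 size factors turned to 31.6% higher and 29.4% lower, with 8 of 8 members then higher. AUC was 0.75 or more for the same 7 and for 3.05% of genes, from 0.81 for S100a10 to 0.95 for Lgals1. Against the 11 P6- cells of the same title prefix 7 of 8 members were again higher by 1 or more, with a share of 44.2% over all genes, and AUC was 0.75 or more for 7 of 8 against 5.52%. Within that prefix the differences were 4.69 for S100a6, 4.47 for Anxa2, 4.35 for Lgals1, 3.64 for Capg, 3.17 for Vim, 1.92 for S100a10 and 1.91 for S100a11, while Lgals3 was lower by 1.81 on the log2 scale. With each cell thinned to 522192 reads, 7 of 8 members were again higher by 1 or more than in P6- cells, with a median difference of 1.97 against 1.94 without thinning. With a stricter filter on cells, chosen after seeing the data, which kept 15 and 73 cells, all 7 abundant members stayed higher by 1 or more, from 1.03 for Anxa2 to 3.14 for Lgals1. Mitochondrial share and number of genes also differed between P6+ and P6- cells, and their part in these differences was not tested.

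P6+ cells without Trbv13-2 were set against the same P6- cells. S100a11 was higher by 2.01 and S100a6 by 1.55 on the log2 scale. The other 5 members at 10 cpm or more lay between -0.40 for Capg and 0.55 for Lgals1, with Anxa2 at 0.31, Vim at -0.02 and S100a10 at -0.33. The count of 2 of 7 is near the background of 24.6% of 7421 genes, so it is no result about these genes. There 34.2% of genes were lower, and with DESeq2 size factors 31.8% were higher and 29.3% lower, with the count still at 2. AUC was 0.75 or more for S100a11 alone (0.76), 1 of 7 members, and for 0.97% of all genes. Within the shared title prefix 6 of 8 members were higher by 1 or more against a background of 43.2%, Capg, Lgals1, Vim and Anxa2 among them, and AUC reached 0.75 for 0 of 8, where 2.37% of genes did. The pooled value of Capg in P6- cells thus depended on which P6- cells were used, 495 cpm over all and 162 cpm over the 11.

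**Figure D2:**
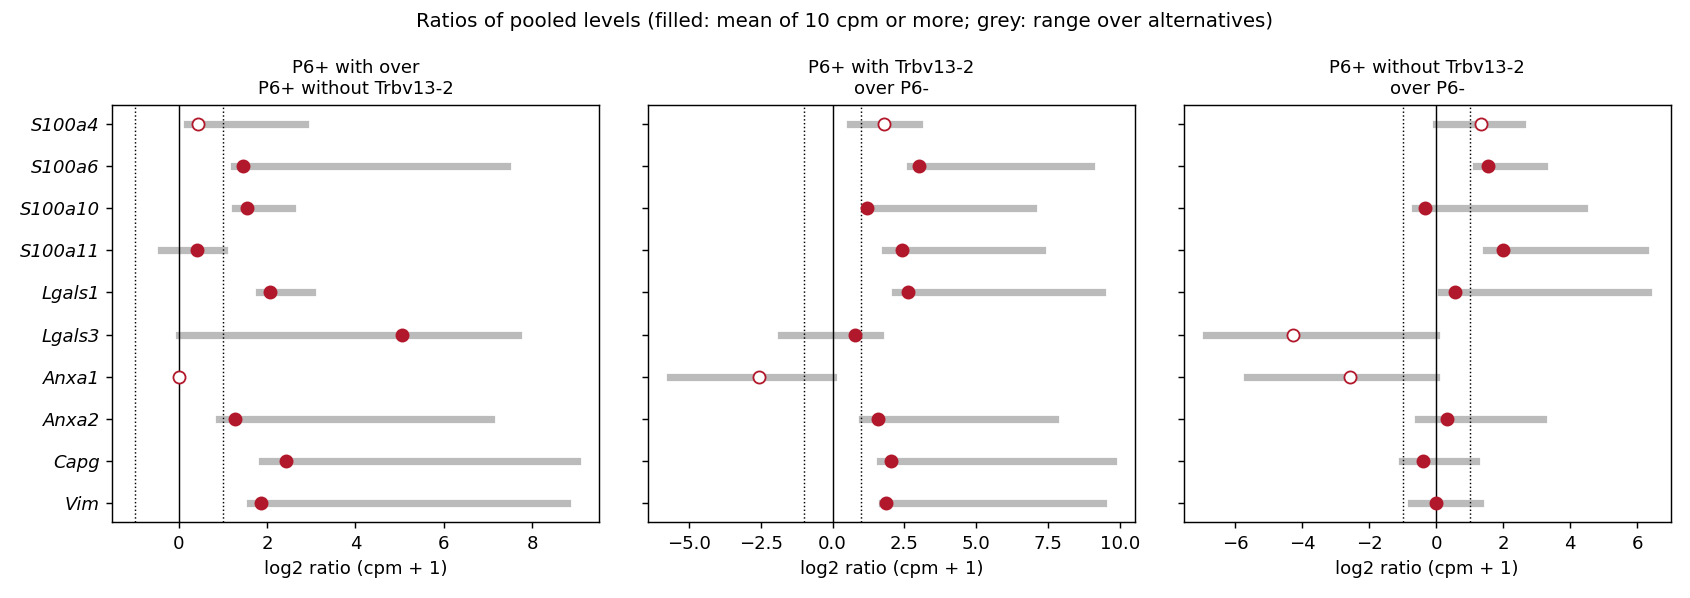
Log2 ratio of pooled levels (cpm + 1) of each member in the 3 comparisons, with filled points for members with a mean of 10 cpm or more, open points for the others, dotted lines at 1 and -1, and grey bars for the range over the alternatives. S100a11 is at 0.41 between the P6+ groups and at 2.42 and 2.01 against P6- cells, while Capg is at 2.43, 2.03 and -0.40.

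The number of members held by a cell differed between the groups. P6+ cells with Trbv13-2 held 4 to 9 of the 10 members at 10 or more reads, with a median of 7. Without Trbv13-2 the number was 0 to 8 with a median of 3, and in P6- cells 0 to 9 with a median of 1. At least 6 members were held by 14 of 16 cells with Trbv13-2 (87.5%, 61.7 to 98.4%), 4 of 16 without it (25%, 7.27 to 52.4%) and 14 P6- cells (10.9%, 6.06 to 17.5%). The limit of 6 was set with the values in view, and near it 1, 0 and 7 cells of the groups held 5 members. None of the members was held at this limit by 35 P6- cells and by 1 P6+ cell without Trbv13-2. After each cell was thinned to 522192 reads, the counts at 6 or more were 14, 4 and 10 cells. Thinning did not make detection alike: the median numbers of genes detected were then 2927, 2709 and 2270. Over the P6+ cells the summed level of the members had a Spearman's rho of 0.55 with the number of genes detected. The part of general detection in these counts was not tested. Over the title prefixes the pooled P6- level of Capg ran from 162 to 767 cpm and the share of cells holding it from 15 to 41.7%, below the 93.8% of P6+ cells with Trbv13-2 in every prefix.

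**Figure D3:**
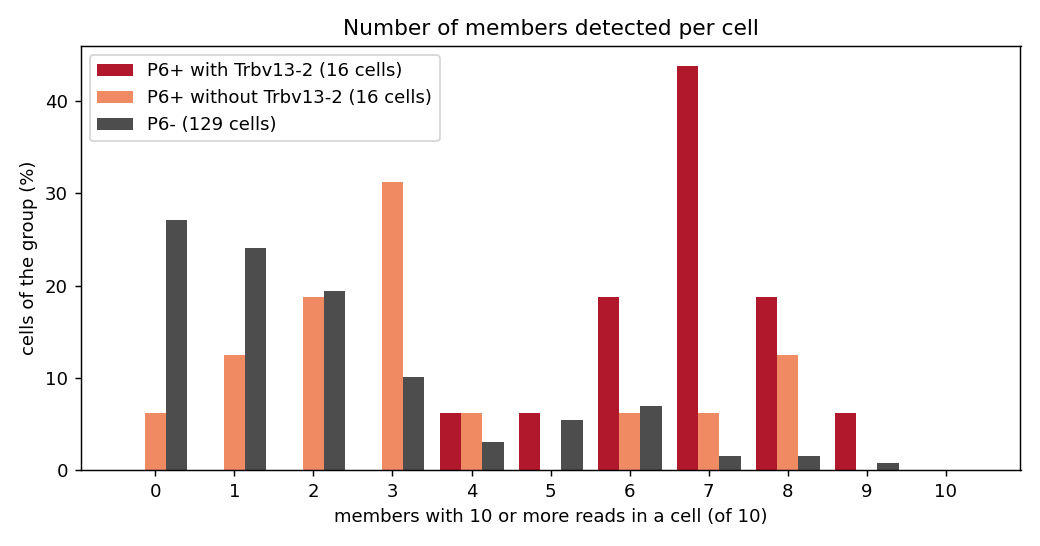
Share of the cells of each group (%) by how many of the 10 members had 10 or more reads in the cell. P6+ cells with Trbv13-2 peak at 7 members, P6+ cells without it at 3 with a separate set of 4 cells at 6 to 8, and P6- cells at 0.

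The P6+ cells without Trbv13-2 were not uniform. In 4 of them 6 to 8 members were held, none held 5, and 12 held 4 or fewer. All 4 of the first set held S100a6, S100a10, Lgals1, Capg and Vim, as the plot of reads in the P6+ cells shows. Of the 4, 1 held 10 or more reads of Foxp3, the lineage gene of regulatory T cells, as did 1 of the 12.

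**Figure D4:**
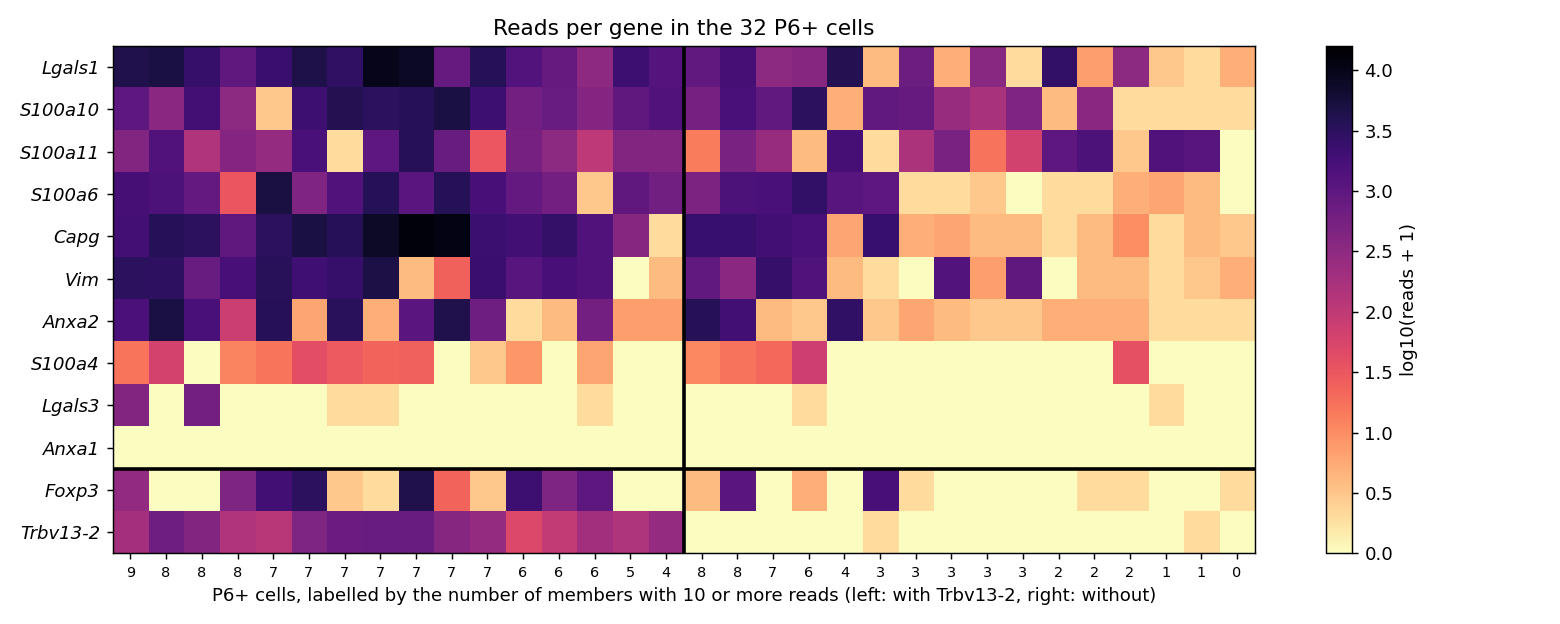
Reads per gene as log10(reads + 1) in the 32 P6+ cells, with 1 column per cell ordered by the number of members held, the 16 cells with Trbv13-2 left of the black line and Foxp3 and Trbv13-2 in the lower rows. On the left 14 of 16 columns carry 6 or more members with and without Foxp3 reads, and on the right 4 of 16 do.

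Foxp3 reads did not divide the cells with Trbv13-2 by these members. The 9 such cells with 10 or more Foxp3 reads held 6 to 9 members and the 7 with fewer held 4 to 8, with a median of 7 in both. Capg was held by 9 of 9 and 6 of 7, Lgals1 by all 16, and Anxa2 by 6 of 9 and 4 of 7. In P6- cells the 19 with 10 or more Foxp3 reads held a median of 3 members and the 110 others a median of 1. Capg was held by 12 of the 19 and 23 of the 110, S100a6 by 8 and 16, Lgals1 by 10 and 32, and Anxa2 by 1 and 11. Leaving out all cells with 10 or more Foxp3 reads kept the same 6 abundant members higher by 1 or more between the P6+ groups, an alternative chosen after seeing the data.

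Reads of Trbv13-2 were also found in P6- cells, which bound no tetramer, where they were read beside the members. The 26 P6- cells with 10 or more Trbv13-2 reads held a median of 1 member and the other P6- cells a median of 2. The share of cells holding a member was higher in the 26 than in the others for 6 of the 7 abundant members. It was 34.6% against 25.2% for Capg, 23.1% against 17.5% for S100a6, 34.6% against 32.04% for Lgals1, 53.8% against 47.6% for S100a10, 46.2% against 33.01% for S100a11 and 15.4% against 7.77% for Anxa2, and for Vim it was lower at 15.4% against 24.3%. Pooled levels were higher in the 26 for Anxa2 (482 against 167 cpm) and Capg (559 against 478 cpm) and lower for the other 5. For Lgals1 (91.4 against 319 cpm) the others include the single cell with 40.6% of all P6- reads of that gene. At least 6 members were held by 4 of the 26 (15.4%) and 10 of the others (9.71%). None of these 26 cells shared the title prefix of the P6+ cells, so tetramer binding and prefix cannot be told apart here.

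Correlations over cells are given as a description, since the P6+ cells share a mouse, some P6- cells a title prefix, and depth and detection enter every gene. Over the 32 P6+ cells Spearman's rho between pairs of members, leaving out Lgals3 and Anxa1, had a median of 0.42, with 22 of 28 pairs above 0. The highest were S100a10 with Capg (0.67), S100a6 with Capg (0.66) and S100a4 with Vim (0.60). S100a6 and Capg were both held by 19 P6+ cells and both missing from 10, with 3 cells holding 1 of them. S100a11 stood apart: with the other 7 it ranged from -0.14 with Vim to 0.28 with Lgals1, with 1 of 7 values above 0. Over the P6- cells all 28 pairs were above 0, with a median of 0.27, and the highest was S100a11 with Capg (0.45), a pair at -0.04 in P6+ cells.

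Within either P6+ group the median correlation was lower, at 0.20 in the 16 cells with Trbv13-2 and 0.34 in the 16 without it. Single pairs went both ways. Without Trbv13-2 Lgals1 with Anxa2 was at 0.74 and S100a10 with Capg at 0.72, against 0.59 and 0.67 over all P6+ cells. The part of the difference between the groups in the P6+ values was not tested. S100A10 and annexin A2 form one complex in the protein, and Anxa2 was held by 13 P6+ cells, 11 of which held S100a10. S100a10 was held without Anxa2 in 14 further P6+ cells. All 13 also held Lgals1.

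**Figure D5:**
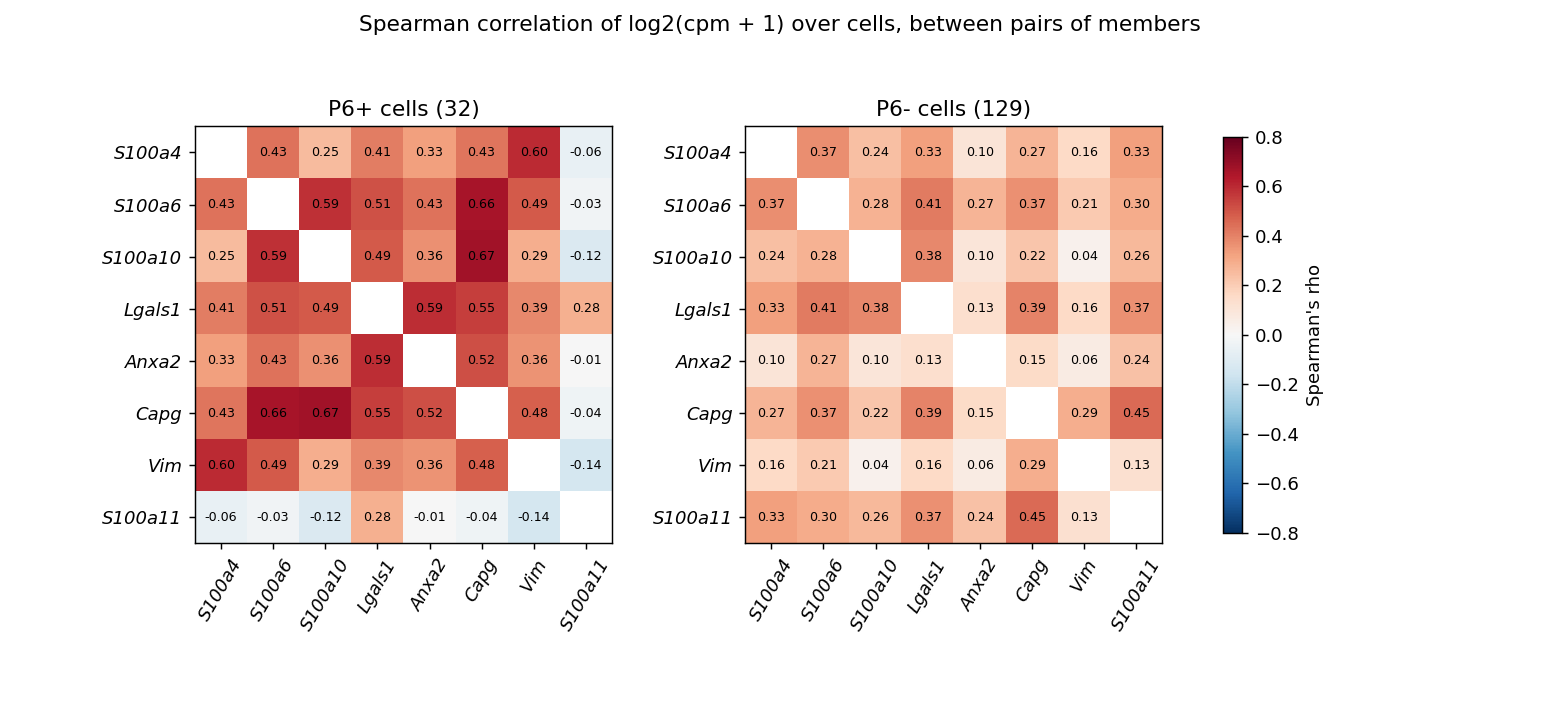
Spearman's rho of log2(cpm + 1) between pairs of 8 members over the 32 P6+ cells (left) and the passing P6- cells (right). The S100a11 row is near 0 in P6+ cells (-0.14 to 0.28) and above 0 throughout in P6- cells (0.13 to 0.45).

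The genes most like the members were ranked by Spearman's rho with the summed log2(cpm + 1) of the 10 members over 161 cells, among 1604 genes held by 20% or more of cells. The median over those genes was 0.13, and the sum itself had a rho of 0.44 with the number of genes detected and 0.06 with total reads. Gm7665, the pseudogene of S100a11 named above, came first (0.61), followed by Cyba (0.53), a subunit of the NADPH oxidase, Crip1 (0.50), a LIM-domain protein, Tnfrsf1b (0.49), the gene of TNF receptor 2, and Actb (0.48), β-actin. The next were Mt1 (0.47), Tmem258 (0.47), AW112010 (0.46), Tnfrsf18 (0.46), the gene of GITR, and Itgb7 (0.45), the integrin β7 chain. Cyba was held by all 16 P6+ cells with Trbv13-2, 8 of 16 without it and 60 P6- cells, and Crip1 by 16, 7 and 75. The order mixes groups that differ in level. Within the P6+ cells the rho of Gm7665 was 0.0029 and within the P6- cells 0.59. Gm7665 is nearly a copy of S100a11, which is part of the sum, and over 161 cells its rho with S100a11 was 0.89. Its first place is thus not that of a separate gene. It also differed between the groups, being held by 10 P6+ cells with Trbv13-2, 8 without it and 17 P6- cells. Within the P6+ and P6- cells rho was 0.73 and 0.43 for Cyba, 0.65 and 0.45 for Crip1 and 0.70 and 0.27 for Actb. The measure is shared detection and names no common control.

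Relatives of the members were taken by symbol, and 6 entries that carry a family symbol without being a family gene (the binding proteins S100pbp and Lgals3bp, the opposite-strand RNA Anxa11os and 3 pseudogenes) were then left out. Of 12 other S100 genes only S100a13 reached 10 cpm, and it was higher with Trbv13-2 by 1.89 against P6+ cells without it and by 1.75 against P6- cells (8, 5 and 33 cells held it). Of 7 other galectin and galectin-like genes 2 had 10 cpm or more in both P6+ groups, 1 higher and 0 lower by 1 or more. With Trbv13-2 against P6- cells 2 had that level in both groups, 0 higher and 0 lower. Of 10 other annexins 4 had it in both P6+ groups, 1 higher and 1 lower, and against P6- cells 1 of 5 was higher and 0 lower. Over all genes at that limit 19.7% were higher and 25% lower between the P6+ groups, and 23.1% and 19% against P6- cells. Counts of 1 of 2 and 1 of 4 are no result about these families. Anxa5, Anxa6 and Anxa11 were the abundant ones, at 381, 493 and 98.8 cpm with Trbv13-2 against 181, 353 and 198 cpm without it. Of the 6 gelsolin-family genes related to Capg, 1 of 2 was higher between the P6+ groups, and against P6- cells 0 of 3 were higher and 1 lower. For P6+ cells without Trbv13-2 against P6- cells, 1 of 3 other galectins, 3 of 5 other annexins and 0 of 3 gelsolin-family genes were higher, and 1, 0 and 2 were lower. All genes stood at 24.6% higher and 34.2% lower there, and with 3 to 5 genes a family these counts are no result about them either.

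Among 16 actin and membrane partners, which include proteins known to bind annexin A2, S100A10 or actin filaments, 6 were higher and 2 lower by 1 or more with Trbv13-2 than without it. Ahnak, the large scaffold that binds the S100A10 and annexin A2 complex, was higher by 2.90 (632 against 83.6 cpm, held by 14 and 8 of 16 cells) and Flna, filamin A, by 4.21 (524 against 27.4 cpm, 7 and 1 cells). Itgb1, the integrin β1 chain, was lower by 3.78 on the log2 scale (40.5 against 571 cpm, 4 and 5 cells). Against P6- cells 15 of the partners had 10 cpm or more in both groups, 4 higher and 1 lower with Trbv13-2. Without it 15 did, 1 higher and 2 lower. The share of 6 of 16 lies near the 32.5% of genes at the limit on the mean, beside 19.7% at the limit in both groups. That of 4 of 15 lies near the 23.1% at the limit in both groups.

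Lists of cell state and of other cell types were read beside the members. Of 10 regulatory T cell genes 4 were higher by 1 or more between the P6+ groups, 7 with Trbv13-2 against P6- cells and 2 without it, where 32.5%, 24.5% and 24.6% of all genes were, so 4 and 2 lie near the background. Of 12 effector genes 6, 11 and 5 were higher in those comparisons, and of 8 naive and recirculating genes 3, 5 and 4 were lower, where 33.3%, 34.6% and 34.2% of all genes were. The summed level of 8 cycling genes was 1139.5 cpm with Trbv13-2, 38.03 cpm without it and 95.9 cpm in P6- cells, and 10 or more Mki67 reads were in 3 cells with Trbv13-2 and 0 without it. Only 1 of the 8 reached 10 cpm in both P6+ groups, so no count of higher genes is given for this list. Leaving out the Mki67 cells kept the same 6 abundant members higher by 1 or more between the P6+ groups and 7 against P6- cells, also an alternative chosen after seeing the data.

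The pooled sum of the B cell markers was highest with Trbv13-2 and lowest without it. Whether these markers followed the members from cell to cell was not tested. Of the 7 markers, only Cd74, Ighm and Cd79b reached 10 reads in a P6+ cell. Cd79a and Ly6d were at 0 in every passing cell while Ms4a1 had 5 reads in all. The summed level per cell was 2.35 to 7726 cpm with Trbv13-2, 0.741 to 2221 cpm without it and 0 to 10663 cpm in P6- cells. Pooled sums were 2494, 238 and 775 cpm. Ighm made up most of the sum with Trbv13-2 and in P6- cells, and without Trbv13-2 Cd74 was the larger part (3218 reads against 2804 of Ighm). Cd74, the invariant chain, was held by 10, 4 and 17 cells, and without the Cd74 cells the same 6 abundant members were still higher by 1 or more between the P6+ groups and all 7 against P6- cells. Of 8 myeloid markers, which bear on Lgals3, Capg and S100 genes that macrophages also express, Cst3 alone reached 10 reads (11, 4 and 24 cells). Itgam, Cd68, Tyrobp, Fcer1g and Adgre1 were at 0 in every passing cell, and Lyz2 had 5 reads in all. Summed myeloid levels were 0 to 1431, 0 to 961 and 0 to 9983 cpm. Of 6 stromal and endothelial markers Pecam1 alone reached 10 reads, in 3, 4 and 16 cells, and was lower with Trbv13-2. The part of the Cst3 and Ighm reads in the members' values was not tested.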

How the data were processed

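The authors deposited one table of gene counts per cell for Smart-Seq2 libraries sequenced as paired ends, with a sheet giving the tetramer sign of each cell. Per the study's methods and the submitters' processing notes, reads were checked with FastQC 0.11.7, aligned and counted per gene with STAR 2.6.0a to GRCm38 with Ensembl annotation, handled with SAMtools 0.1.19, and rows of the same gene name averaged before their analysis. The strand setting of the counting is not given in the sources used here. The deposited counts were whole numbers and were not normalized. The table had 53647 rows and 53546 names, and the 81 names it listed more than once, none of them a member, were averaged here.

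Cells were kept with at least 500000 reads, 2000 genes and under 10% mitochondrial reads, the study's limits apart from one on mapping rate, which is not used here. For each group the reads of its cells were pooled and scaled to cpm, and groups were compared as log2 of (cpm + 1). Genes compared had a mean of 10 cpm or more, or 10 cpm or more in both groups where that is named. A difference of 1 or more was counted, as was an AUC of 0.75 or more. Poisson and binomial intervals were exact at 95%, and the limit for a count of 0 was 3 reads over the group. Each sample is 1 cell and the P6+ cells came from 1 mouse, so no test was made. Within-cell detection used 10 or more reads. No doublet caller was run on cells sorted singly. Lists were the other S100, galectin and annexin genes by symbol (6 non-family entries left out after the values were seen), the gelsolin family, actin and membrane partners, regulatory, effector, naive and recirculating, and cycling genes, and markers of T, CD8, B, myeloid, natural killer, stromal and endothelial, and red cells. The value of 1 listed marker is not reported here. All members were described, with the 10 genes of highest Spearman correlation with their summed log2 values (receptor segments, ribosomal and mitochondrial genes left out), and of each list the counts and a few members, Ahnak, Anxa5, Anxa6 and Anxa11 having been chosen after their values were seen. The 10 genes and the lists were chosen with earlier results of these data known. Gene copies were found with blastn 2.17.0 on GENCODE transcripts of GRCm38 at 85% identity or more, and promoters came from RefSeq. Alternatives covered the cell filter, the Trbv13-2 limit, weighting of cells, pseudocount, gene filter, thinning, the title prefix, the gene filter in both groups and a filter of 1000000 reads, 3000 genes and under 5% mitochondrial reads (both added after the values were seen) and scaling with edgeR 4.0.16 (TMM) and DESeq2 1.42.0 (size factors) without their tests. Scripts (Python 3.11.15, pandas 2.3.3, scipy 1.17.1, R 4.3.3) were tested on simulated counts.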

Additional observations from a re-analysis of the deposited data

How the results depend on the processing

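No paired analysis was possible because each sample is a single cell and no test was made. Without Lgals3, the count of members higher by 1 or more was 6 between the P6+ groups, 5 when each cell had the same weight or depth and 7 with medians over cells, and 7 or 8 for P6+ cells with Trbv13-2 against P6- cells under every alternative run. For P6+ cells without Trbv13-2 against P6- cells it was 2, or 3 without the gene filter or with the stricter cell filter, except that it was 6 with only the P6- cells of the same title prefix and 4 with medians over cells. Anxa2 fell under 1 between the P6+ groups, to 0.92 at the lowest, when each cell had the same weight or depth. Scaling moved the median of all genes for P6+ cells with Trbv13-2 against P6- cells from -0.20 to -0.13 with TMM and 0.16 with DESeq2 size factors, and for those without from -0.12 to -0.07 and 0.26. No member value past 1 in size changed sign, though some values of Lgals3, Anxa1 and S100a4 came to 0 with medians over cells or the same prefix. Smaller ones changed sign. Against P6- cells of the same prefix, Lgals3 with Trbv13-2 went from 0.78 to -1.81, and without Trbv13-2 Capg went from -0.40 to 1.20, Vim from -0.02 to 1.31 and S100a10 from -0.33 to 0.39. With medians over cells that S100a10 value was 4.41, and without Cd74 cells Anxa2 went from 0.31 to -0.54. With 16 cells a group, the share of cells holding a gene carries a wide interval, and with 1 mouse the spread between animals is unknown.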
